A study of Homo sapiens with 4 samples.

Results

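The CDC25 phosphatases, the WEE1 family kinases and the CKS proteins set and read the phosphorylation state of cyclin-dependent kinases. The 7 genes CDC25A, CDC25B, CDC25C, WEE1, PKMYT1, CKS1B and CKS2 were taken by name from a table of 6828 genes, and all 7 were found in it. RNA-seq was performed on A549 cells, a human lung adenocarcinoma line, 72 h after lentiviral infection. One group (shctrl) expressed a control shRNA and the other (shUSP2-AS1) an shRNA against USP2-AS1, an antisense long noncoding RNA, with 2 libraries in each, so that both groups carried a lentiviral hairpin and differed in its target. The question was which genes respond to USP2-AS1 knockdown. The sources used here do not say which of the study's USP2-AS1 shRNAs was sequenced, and the libraries come from 1 line with 1 hairpin label per group.

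WEE1 and PKMYT1 (also called MYT1) place inhibitory phosphates on the ATP-binding loop of CDK1 and, for WEE1, of CDK2. The CDC25 phosphatases remove them, and the active kinase in turn activates CDC25 and inhibits WEE1, which makes entry into mitosis switch-like. CKS1B and CKS2 are small adaptors that bind CDKs and dock them on phosphorylated substrates, and CKS1B is also the cofactor with which the ubiquitin ligase SCF-SKP2 recognises the CDK inhibitor p27. Transcripts of these genes rise and fall with the cell cycle in dividing cells. In bulk RNA, fewer cells in a cycle phase and less RNA per cell cannot be told apart.

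The table gave normalized read counts, that is, reads divided by a size factor of each library, and 1 read was worth 0.966 and 1.10 in shctrl and 1.05 and 0.880 in shUSP2-AS1. The reads on listed genes numbered 12330115 and 10772788 in shctrl and 11715962 and 14120472 in shUSP2-AS1. The 7 genes held 24 to 7805 reads per library. The table lists only genes that passed an adjusted p-value of 0.05 in the authors' own comparison, so the adjusted p-values below are those of a preselected table and a gene that is not in it was not analysed here. USP2-AS1 itself held 24 and 22 reads in shctrl and 2 and 7 after knockdown (log2 fold change -2.39 ± 0.56, SE). With 1 library left out, this value ranged from -2.99 to -1.78. Of the 6 epithelial markers looked up, KRT8, KRT18, KRT19 and KRT7 were listed. Their summed normalized read counts were 179244 and 168132 in shctrl and 106336 and 112823 in shUSP2-AS1. KRT8 had the largest counts, which were not divided by gene length. KRT18 was called lower (log2 fold change -1.05, and -0.99 with upper quartile scaling, short of the threshold) while KRT19 was at 0.75. Of 6 genes typical of the A549 line, ALDH1A1, ALDH3A1 and AKR1B10 were listed, with sums of 222309 and 213315 against 253123 and 253343. None of them was called, and they did not share a direction. Their log2 fold changes were 0.41 for ALDH1A1, 0.26 for AKR1B10 and -0.68 for ALDH3A1. None of the 5 leukocyte or 4 endothelial markers was listed. Of the 5 fibroblast markers, COL1A1 and LUM were listed, with summed normalized read counts of 263 and 295 in shctrl and 555 and 634 in shUSP2-AS1, nearly all of them COL1A1. Both were called higher, COL1A1 at a log2 fold change of 1.05, which fell short of the threshold without the first shctrl library (0.96) or the second shUSP2-AS1 library (0.94), and LUM from 2 and 1 reads in shctrl to 24 and 18 in shUSP2-AS1. The part of these markers in the results below was not tested.

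Every one of the 7 genes was lower in both USP2-AS1 knockdown libraries than in both control libraries. A gene was called when limma gave it an adjusted p below 0.05 and a log2 fold change of at least 1 in size. By this rule 6 of the 7 were called lower, against 13.5% of the 6812 genes tested, while 16.1% of those genes were called higher. That balance between lower and higher calls in the whole table turned with RLE scaling and in DESeq2, and the count of 6 did not. The exception was CDC25B, which fell by less than the fold threshold. Without that threshold all 7 counted as lower, against 49.4% of genes. Passing itself then carries no information, since limma gave 6811 of the 6812 genes tested an adjusted p below 0.05. The median log2 fold change of the 7 was -1.75 and that of all genes tested was 0.19. With at least 10 required in every library, the median of all genes was -0.15. That the groups did not overlap for these genes carries no information, since this held for 6811 of the genes tested (100%). PKMYT1 and CDC25C showed the lowest values, with 0.631% and 0.661% of tested genes below them. The plot of fold changes shows the 7 genes under the distribution of the whole table, which is nearly empty around 0, as the table lists no genes above the authors' threshold.

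**Figure D1:**
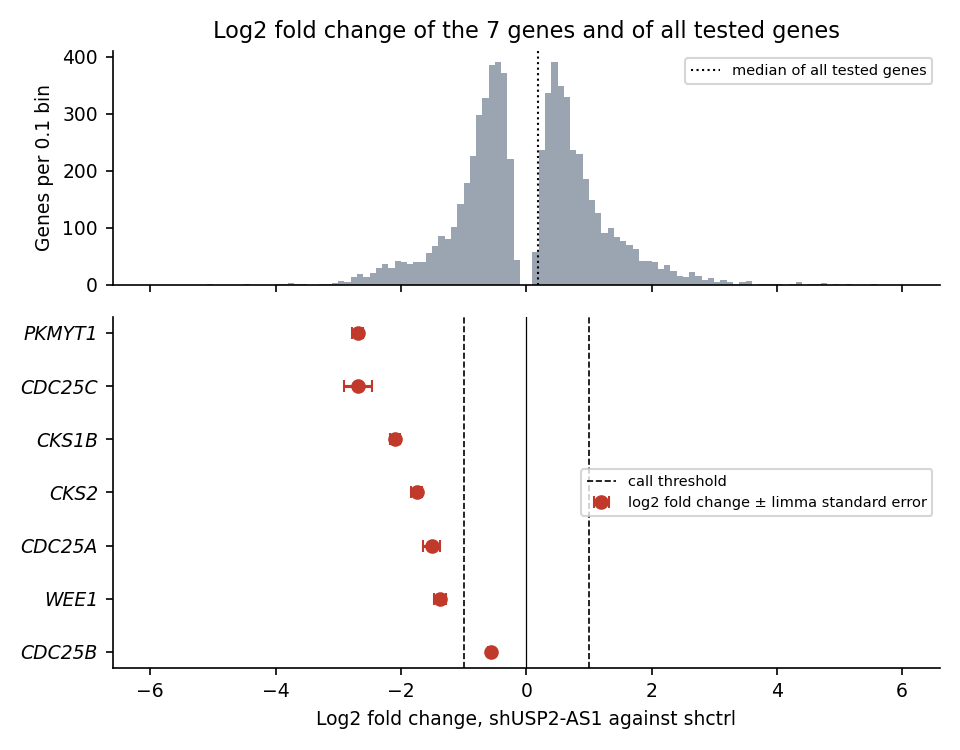
The upper panel plots the number of tested genes per 0.1 bin of log2 fold change (shUSP2-AS1 against shctrl) and the lower panel the log2 fold change of each of the 7 genes with its limma standard error. All 7 points lie left of 0, from -2.69 for PKMYT1 to -0.56 for CDC25B, which alone lies inside the dashed call thresholds at -1 and 1.

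Promoters of these genes were compared, since the motifs that cell-cycle genes share lie close to the transcript start. RefSeq promoters (GRCh38.p14, 250 bases before to 50 after the start) were available for 5 of the 7 genes, CDC25A, CDC25B, CDC25C, CKS1B and CKS2, and the one starting at the canonical GENCODE transcript was used. The stretch around the match nearest the start is shown for each of them, 5′ to 3′ on the strand of the gene, with the match in capitals.
CDC25A, chr3:48188418-48188517, minus strand: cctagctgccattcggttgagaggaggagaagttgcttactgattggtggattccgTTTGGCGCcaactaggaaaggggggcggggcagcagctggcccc
CDC25B, chr20:3796260-3796289, plus strand: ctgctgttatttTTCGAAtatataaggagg
CDC25C, chr5:138331817-138331846, minus strand: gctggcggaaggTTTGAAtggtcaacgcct
CKS1B, chr1:154974639-154974668, plus strand: gcgggcggcgtgTTTGAAagcgaggccaaa
CKS2, chr9:89311095-89311194, plus strand: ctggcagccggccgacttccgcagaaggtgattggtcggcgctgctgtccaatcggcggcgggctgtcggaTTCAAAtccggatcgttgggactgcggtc

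The capitals in CDC25B, CDC25C, CKS1B and CKS2 mark the letters of the cell cycle genes homology region (CHR), the element bound by the DREAM and MMB complexes, searched as TTTGAA or TTCGAA on both strands. In CKS2 the element reads TTTGAA on the opposite strand. These letters were in 4 of the 5 promoters, against 16.4% of 35116 promoters of the same length. Counted from the start, their first bases lay at -38 in CDC25B, at -30 in CDC25C and CKS1B and at -29 in CKS2. The capitals in CDC25A mark an E2F motif, searched as TTTCCCGC, TTTGGCGC, TTTCGCGC or TTTGCCGC on both strands. It was in 1 of the 5 promoters, at -44, against 3.31% of all promoters. CCAAT, the letters bound by NF-Y, was in all 5 promoters, against 34.6% of all, once in CDC25B and CDC25C, 2 times in CDC25A, 3 times in CKS2 and 5 times in CKS1B. No match of one motif overlapped one of another. Short letters such as these occur often by composition alone, and a match does not show that a factor binds there. CDC25B, the gene with the smallest fold change, held CHR letters as TTCGAA and 1 CCAAT. CDC25C, one of those with the greatest, held CHR letters as TTTGAA and 1 CCAAT. The part of these matches in the fold changes was not tested.

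**Figure D2:**
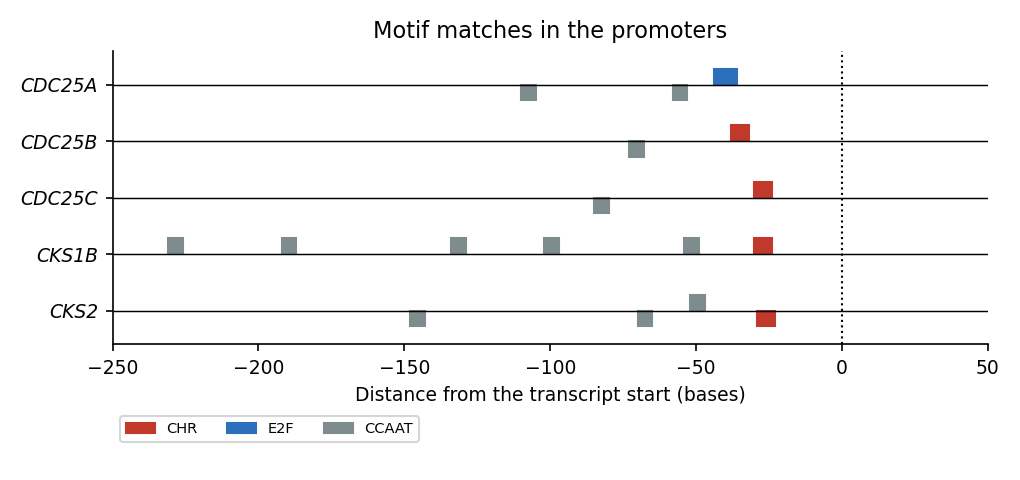
Each line is a promoter from 250 bases before to 50 bases after the transcript start (dotted), and each box a match to the CHR, E2F or CCAAT letters, above the line on the gene's strand and below it on the other (the CHR letters of CDC25B read the same on both). The 4 CHR matches begin between -38 and -29, and the E2F match of CDC25A begins at -44.

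The CDC25 phosphatases changed by very different amounts. CDC25A (ENSG00000164045, chr3:48157146-48188417, minus strand), which acts from the G1/S transition onward and is degraded in the DNA damage checkpoint, gave normalized read counts of 400 and 344 in shctrl and 114 and 148 in shUSP2-AS1. Both knockdown libraries were below 50% of either control. The means were 372 ± 39.6 and 131 ± 24.3 (SD, n = 2). The log2 fold change was -1.51 ± 0.14 (SE), which left 35.1% of the control level (limma, adjusted p = 2.25e-08).

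CDC25C (ENSG00000158402, chr5:138285265-138338355, minus strand), the phosphatase that Polo-like kinase and CDK1 activate at mitotic entry, gave 223 and 195 in shctrl and 25.2 and 39.6 in shUSP2-AS1. The knockdown values rest on 24 and 45 reads, and they varied most among the 7 genes for their size. The log2 fold change was -2.68 ± 0.22 (SE), which left 15.5% of the control level (limma, adjusted p = 3.95e-09). FAM53C, a gene on the opposite strand, overlaps the CDC25C interval, and since the strand setting of the counting is not stated in the sources used here, reads of the overlap cannot be told apart.

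CDC25B (ENSG00000101224, chr20:3786772-3806121, plus strand), regarded as the starter phosphatase that first activates cyclin B complexes at the centrosome, was by far the most abundant of the phosphatases. Its normalized read counts were 7542 and 7617 in shctrl and 5093 and 5200 in shUSP2-AS1. The replicates lay close together, with means of 7579 ± 53.2 and 5146 ± 75.6 (SD, n = 2). CDC25B was at 67.9% of the control level, with a log2 fold change of -0.56 ± 0.05 (SE) (limma, adjusted p = 6.47e-09), and 31.2% of tested genes had a lower value.

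**Figure D3:**
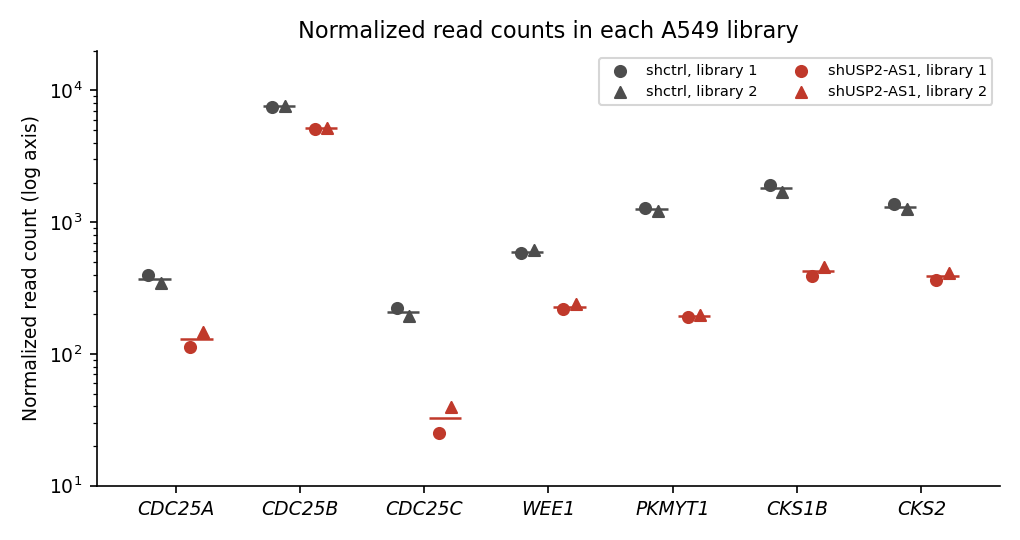
Normalized read count (log axis) of each gene in each library, with gray symbols for the 2 shctrl libraries, red symbols for the 2 shUSP2-AS1 libraries and a line at each group mean. The red symbols lie below the gray ones for all 7 genes, with the narrowest gap for CDC25B (5146 against 7579) and wide ones for CDC25C (32.4 against 209) and PKMYT1 (193 against 1252).

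The kinases that oppose CDC25 were also lower. WEE1 (ENSG00000166483, chr11:9573670-9593457, plus strand), the nuclear tyrosine kinase of CDK1 and CDK2, gave 579 and 611 in shctrl and 218 and 239 in shUSP2-AS1. Its log2 fold change was -1.38 ± 0.10 (SE), which left 38.4% of the control level (limma, adjusted p = 7.92e-10). PKMYT1 (ENSG00000127564, chr16:2968024-2980479, minus strand), the membrane-bound kinase that phosphorylates CDK1 on threonine and tyrosine, gave 1280 and 1223 in shctrl and 189 and 196 in shUSP2-AS1. It had the most negative fold change of the 7 genes and, after CDC25B, the closest knockdown replicates for its size. The means were 1252 ± 40.4 and 193 ± 4.98 (SD, n = 2), and the log2 fold change of -2.69 ± 0.09 (SE) left 15.4% of the control level (limma, adjusted p = 2.44e-14). KREMEN2 and PAQR4 overlap the PKMYT1 interval on the opposite strand, and the limit given for CDC25C holds here too.

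Both CKS genes were called lower. CKS1B (ENSG00000173207, chr1:154974653-154979251, plus strand) gave 1925 and 1707 in shctrl and 393 and 455 in shUSP2-AS1. This left 23.4% of the control level, a log2 fold change of -2.10 ± 0.08 (SE) (limma, adjusted p = 2.97e-13). CKS2 (ENSG00000123975, chr9:89311195-89316703, plus strand), its close paralog, gave 1364 and 1255 in shctrl and 366 and 413 in shUSP2-AS1. This left 29.7% of the control level, a log2 fold change of -1.75 ± 0.08 (SE) (limma, adjusted p = 2.69e-12). For both, the higher knockdown library stayed well under the lower control library. GENCODE release 44 annotates 7 pseudogenes of CKS1B, none of which was listed, and how reads shared with them were assigned is not stated in the sources used here.

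Differences between the fold changes were tested for all 21 pairs of the 7 genes, from the limma standard errors and adjusted over the 21. The test treats the genes of a pair as independent, although they were measured in the same libraries. The limma standard errors also draw on the spread of all genes tested. These genes had passed the authors' threshold, and the effect of this was not tested. The fold changes differed in 18 pairs. Among the phosphatases, CDC25A minus CDC25B was -0.95 on the log2 scale, CDC25B exceeded CDC25C by 2.12 (95% interval 1.65 to 2.60, limma, adjusted p = 1.51e-07), and CDC25A exceeded CDC25C by 1.17 (0.62 to 1.72, limma, adjusted p = 0.000535). Between the kinases, WEE1 exceeded PKMYT1 by 1.32 (1.04 to 1.59, limma, adjusted p = 8.71e-08). The fold changes of the CKS paralogs lay closer together and still differed, with CKS1B minus CKS2 at -0.35 (-0.59 to -0.10, limma, adjusted p = 0.0113). The strongest decrease was that of CDC25C among the phosphatases, of PKMYT1 between the kinases and of CKS1B between the CKS genes.

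The remaining 3 pairs did not differ by this test. CDC25C and PKMYT1 differed by 0.01 (95% interval -0.49 to 0.51, limma, adjusted p = 0.963). CDC25A and WEE1 differed by -0.13 (-0.50 to 0.23, limma, adjusted p = 0.478). CDC25A and CKS2 differed by 0.24 (-0.11 to 0.58, limma, adjusted p = 0.18). These intervals reach from -0.50 to 0.58, so equal changes were not shown. Of the pairs that differed, CDC25C with CKS1B (-0.58, limma, adjusted p = 0.0276) lost its call without the first shctrl library (adjusted p = 0.07) or the first shUSP2-AS1 library (adjusted p = 0.124), and WEE1 with CKS2 (0.37, limma, adjusted p = 0.0132) lost it without the first shctrl library (adjusted p = 0.14).

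Levels were compared between genes only after division by the gene length of the table, as normalized read count per kilobase. In shctrl, CKS2 was highest at 2126 per kilobase, followed by CDC25B at 1757, CKS1B at 776, PKMYT1 at 252 and CDC25A at 89.7. WEE1 at 64.3 and CDC25C at 62.6 came last, and the libraries of this pair overlapped, so their order is not fixed. In shUSP2-AS1, CDC25B was highest at 1193 per kilobase, followed by CKS2 at 632, CKS1B at 181, PKMYT1 at 38.8, CDC25A at 31.5, WEE1 at 24.7 and CDC25C at 9.71. No neighbours in that order overlapped. CDC25B and CKS2 therefore exchanged the first place, while CKS1B, PKMYT1 and CDC25A kept their order. The table's length covers all annotated exons of a gene, so the level of a gene that uses a short transcript is understated.

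**Figure D4:**
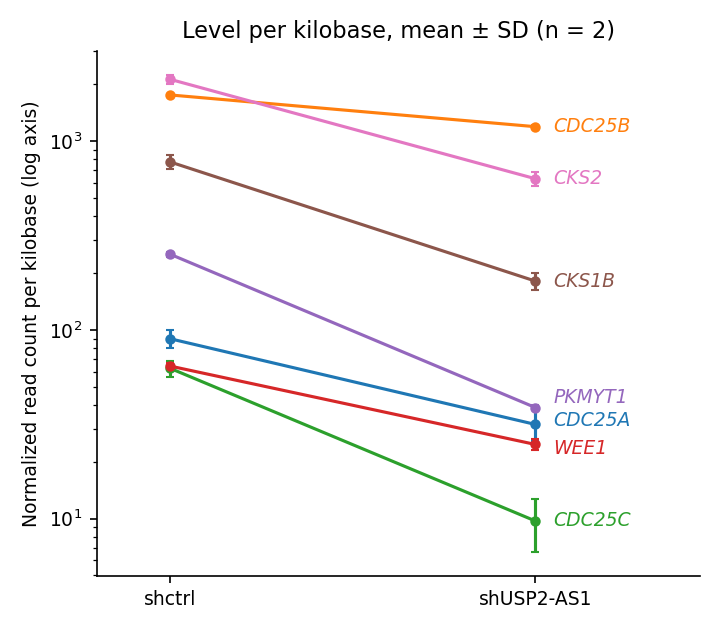
Normalized read count per kilobase (log axis) of each gene in the 2 groups, as the mean with the SD over 2 libraries. The line of CDC25B crosses that of CKS2 (1757 to 1193 against 2126 to 632), and the line of CDC25C parts from that of WEE1 (62.6 to 9.71 against 64.3 to 24.7).

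The transcripts of phosphatases and kinases were then set against each other within each library. The summed CDC25 level per kilobase was 5.97 and 6.11 times the summed WEE1 and PKMYT1 level in shctrl and 19.7 and 19.2 times in shUSP2-AS1. The ratio of the group means was 3.22. CDC25B made up 91.5% and 92.6% of the summed CDC25 level in shctrl and 97.1% and 96.2% in shUSP2-AS1. With CDC25A and CDC25C alone over the same kinases, the ratio was 0.511 and 0.453 in shctrl and 0.568 and 0.728 in shUSP2-AS1, closer together but not overlapping. WEE1 over PKMYT1 was 0.243 and 0.269 in shctrl and 0.618 and 0.656 in shUSP2-AS1. CDC25A over CDC25C was 1.44 and 1.42 against 3.62 and 3.01. CKS2 over CKS1B was 2.69 and 2.79 against 3.53 and 3.45. The groups did not overlap in any of these ratios, which are of genes preselected for a difference between the groups. With 2 libraries against 2, the two-sided exact permutation test gives 0.333 for each. This is the smallest p it allows, so the test cannot decide whether the ratios differ. The ratios are of RNA and do not measure phosphatase or kinase activity.

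**Figure D5:**
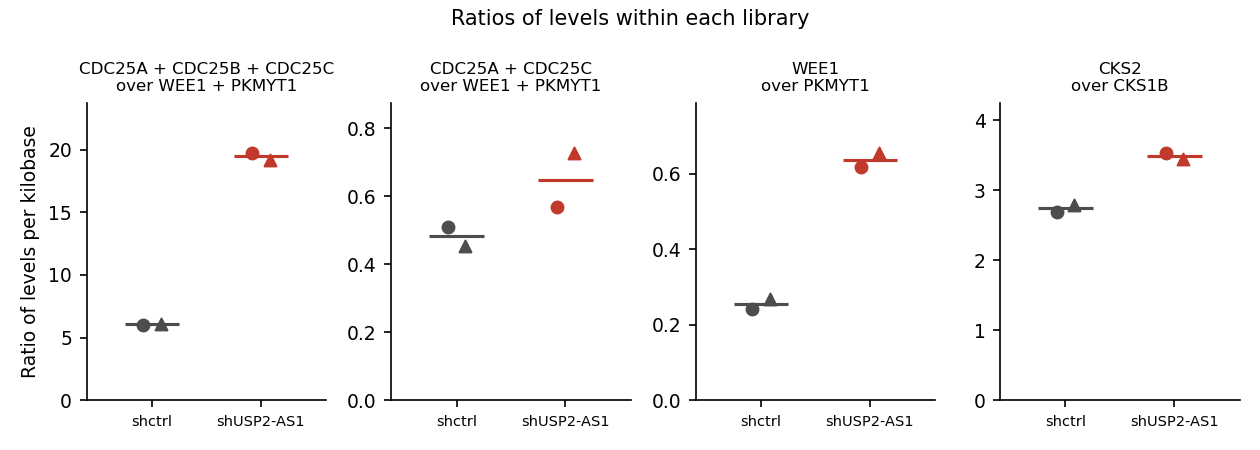
Ratios of levels per kilobase within each library (gray shctrl, red shUSP2-AS1, lines at group means, axes from 0). The summed CDC25 level over the summed WEE1 and PKMYT1 level has a mean of 6.04 in shctrl and 19.5 in shUSP2-AS1, whereas the ratio without CDC25B goes from a mean of 0.482 to 0.648.

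CDK1, CDK2 and their cyclins form the complexes on which these enzymes act. Of 12 genes for these complexes and the CDK-activating kinase, 7 were tested, all of them CDK1, CDK2 or A, B and E type cyclins. All 7 were called lower, against 13.5% of all genes tested, and their median log2 fold change was -2.03, against 0.19. CDK1, the mitotic kinase, gave 1332 and 1326 in shctrl and 227 and 277 in shUSP2-AS1, which left 19.0% of the control level. CDK2, the S phase kinase, left 24.3%, with a log2 fold change of -2.03 ± 0.10 (SE). CCNA2, the cyclin of S and G2 phase, had a log2 fold change of -2.42, and the mitotic cyclins CCNB1 and CCNB2 had -2.25 and -1.87. The values of PKMYT1 (15.4%) and WEE1 (38.4%) stand on either side of that of their substrate CDK1.

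The regulators upstream of CDC25 and WEE1 include kinases that activate them and checkpoint proteins that restrain them. Of 27 checkpoint kinases, 14-3-3 proteins, mitotic kinases and ubiquitin ligase adaptors, 18 were tested, of which 5 were called lower, against 13.5% of all genes tested, with a median log2 fold change of -0.27. PLK1, which activates CDC25C and marks WEE1 for destruction, gave 2964 and 2962 in shctrl and 511 and 536 in shUSP2-AS1, and its log2 fold change was -2.50 ± 0.06 (SE). AURKA, the kinase that activates PLK1, was at 18.1% of the control level, and CLSPN, the adaptor through which ATR activates CHK1, at 18.3%. TOPBP1, an activator of ATR, fell by 1.42 on the log2 scale. BORA, the cofactor of AURKA, was called at -1.15, and without the second shUSP2-AS1 library its value was -0.82, short of the fold threshold. CHEK1, the checkpoint kinase that phosphorylates CDC25 proteins and WEE1, was not called, at 58.1% of the control level.

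Among the 18, 7 had higher values and 11 lower ones, while 49.4% of all genes tested were lower. None of the 18 was called higher, against 16.1% of all genes tested. PLK3, a stress-responsive Polo-like kinase, was highest, with 350 and 371 in shctrl and 676 and 699 in shUSP2-AS1, and its log2 fold change was 0.93 ± 0.09 (SE). NEK11, a checkpoint kinase for CDC25A, was at 0.82 ± 0.15 (SE). CDC14B, a phosphatase, was at 0.64, BTRC, an F-box protein that targets CDC25A and WEE1, at 0.52, and MAPKAPK2, a stress kinase, at 0.46. The 14-3-3 genes SFN and YWHAQ were at 0.23 and 0.11, and the value of YWHAQ was below 0 with the RLE and DESeq2 scalings. The 14-3-3 genes YWHAZ and YWHAG were lower, at -0.48 and -0.22, and the other 14-3-3 genes were not analysed here.

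PP2A-B55, the phosphatase that opposes CDK1 at mitotic entry, is held in check by the Greatwall kinase. Of 11 genes of this pathway, 6 were tested and 1 was called lower, a share near the 13.5% of all genes tested, with a median log2 fold change of -0.11. That gene was MASTL, the Greatwall kinase, at 32.2% of the control level, with 626 and 678 in shctrl and 225 and 195 in shUSP2-AS1. ENSA and ARPP19, the substrates through which it inhibits PP2A-B55, were at 0.26 and 0.17, and at 0.14 and 0.06 with RLE scaling. The scaffold PPP2R1B was at -0.56, and the B55 subunits PPP2R2A and PPP2R2C were at -0.39 and 0.45.

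Of 13 genes that work with CKS proteins, 5 were tested, with 1 called in each direction, near the 13.5% and 16.1% of all genes tested at this size, and a median log2 fold change of -0.33. CDC20, the mitotic coactivator of the anaphase-promoting complex, was called lower at 13.7% of the control level. CDKN1A, the CDK inhibitor p21, was called higher, at 287% of the control level. CUL1 (-0.33), SKP1 (0.22) and FZR1 (-0.34), the CDH1 coactivator, were not called. SKP2 and CDKN1B, the F-box protein and the substrate most closely tied to CKS1B, were not listed and were not analysed here.

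Of 24 transcriptional regulators of cell-cycle genes, 15 were tested, and all 15 had lower values, against 49.4% of all genes tested, with 10 called, against 13.5%, and a median log2 fold change of -1.17. Among the factors whose letters are shown above, FOXM1, which acts with the MMB complex at CHR genes, was at 22.8% of the control level, with 1725 and 1812 in shctrl and 395 and 409 in shUSP2-AS1. MYBL2, the MMB subunit B-MYB, and E2F1 were at 23.1% and 23.0%. RBL1, the pocket protein p107, was at 40.8%. RBBP4, a subunit shared by DREAM and MMB, was at 56.8% and was not called. LIN52 and NFYA, called at -1.05 and -1.08, lay within the threshold without the second shctrl library, at -0.99 and -0.96. LIN52 also did so with upper quartile scaling, at -0.99, and NFYA without the first shUSP2-AS1 library, at -0.98. This decrease went together with that of the 7 genes in the same libraries, and its part in it was not tested.

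Genes with the most similar profile were sought for each of the 7 among 6045 genes with a symbol and a mean of at least 100, by the root mean square difference of their centred log2 values over the 4 libraries. PKMYT1 was closest to CDCA5 (0.0169), which encodes the cohesin regulator sororin, and to MCM7 (0.0197), a subunit of the replicative helicase. WEE1 was closest to CCDC50 (0.00906) and to E2F7 (0.0248), an atypical repressor E2F. CDC25C was closest to TROAP (0.0817), a spindle-associated protein, and CENPU (0.0992), a centromere protein, at larger distances than the other genes. CDC25A was closest to TOR1B (0.0429), and CDC25B to ANAPC2 (0.00793), a subunit of the anaphase-promoting complex, and SOX12 (0.00937). CKS1B was closest to RRAS2 (0.0416), and CKS2 to C4orf46 (0.0270) and BCL2L12 (0.0279). With 4 libraries such a distance mostly reflects an equal fold change.

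Listed genes next to the 7 did not share one direction. CKS2 has SECISBP2 1797 bases away on the same strand, and SECISBP2, which encodes a selenoprotein synthesis factor, was higher with a log2 fold change of 0.87 ± 0.07 (SE). CKS1B has 3 listed neighbours within 20 kilobases, of which FLAD1 (-0.60) and PYGO2 (-0.31) were lower and PBXIP1 (1.32) was called higher. CDC25B has CENPB, a centromere protein gene on the opposite strand, at 32 bases, with a log2 fold change of -0.43, C20orf27 at -0.54 and AP5S1 at 0.35. No listed gene lay within 20 kilobases of CDC25A, CDC25C, WEE1 or PKMYT1.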

How the data were processed

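RNA-seq libraries of A549 cells (2 shctrl, 2 shUSP2-AS1) were grouped by their treatment label. The value columns do not carry these labels. They are named scr and sh with a hairpin number, and it was inferred from the heading of the table, which sets shUSP2-AS1 against shctrl, that scr is shctrl and the other shUSP2-AS1. Replicate numbers are those of the column names. The study's methods call them biological replicates. The submitters' processing notes name HISAT2 2.0.5, featureCounts 1.5.0-p3, DESeq2 1.20.0 and hg38. For each gene the authors deposited its length, a normalized signal in every library (read count over a size factor) and the results of their own comparison, a log2 fold change with raw and adjusted p-values. Those results were not used, except to test that the adjusted p-value of every listed gene was below 0.05. Dividing by the value of 1 read gave whole reads (within 0.01) for 100% of values.

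Genes averaging 10 or more (6812) were fitted as log2(value + 1) with limma 3.58.1 (R 4.3.3, lmFit and eBayes with a trend), the fit for normalized values, and p-values were adjusted by Benjamini-Hochberg over all of them. Fold changes on this scale understate those of low genes. Standard errors are limma's, SDs are over 2 libraries. The replicates of a group differed by more than sampling noise (chi-square per degree of freedom 3.72 and 3.83). Recovered reads were tested with edgeR 4.0.16 (quasi-likelihood) and DESeq2 1.42.0 as alternatives, with other scalings, filters, a pseudocount of 0.1, a replicate block, a test against a fold change of 2 and each library left out. The methods were tested on simulated data.

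The 7 genes and the gene lists were chosen with earlier results of these data known. Named genes are the 7, USP2-AS1, markers, of each list the 5 with the lowest p and those opposite to most calls, the 2 most similar profiles (2 of these genes are not reported here) and listed neighbours within 20 kilobases. CHEK1, BORA, YWHAZ, YWHAG, CCNE1, CCNE2, TFDP2, LIN9, LIN52 and NFYA were named after their values were seen. Promoter sequences are from RefSeq (GRCh38.p14) and intervals from the deposited table, 6 of the 7 identical to GENCODE release 44.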

Additional observations from a re-analysis of the deposited data

How the results depend on the processing

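Each of the 7 genes was lower and the same 6 were called under every scaling, filter, pseudocount, count test, replicate block and omission of a library that was run. Without the fold threshold, 3362 genes of the table were lower and 3449 higher, and in limma's test against a fold change of 2, 523 and 541, with 922 and 1098 in the main analysis. Over all settings the log2 fold change ranged from -1.70 to -1.32 for CDC25A, -0.68 to -0.50 for CDC25B, -2.996 to -2.37 for CDC25C, -1.49 to -1.31 for WEE1, -2.81 to -2.63 for PKMYT1, -2.21 to -1.99 for CKS1B and -1.87 to -1.66 for CKS2. RLE scaling and DESeq2 shifted the median of all genes by -0.12, with 1143 lower and 930 higher calls in the first and 1140 and 942 in the second (55.1% and 54.8% lower, against 45.6%), and the value of YWHAQ was then -0.0075 and -0.0048. With at least 10 in every library, which tests fewer genes (6570), that median was -0.15 in place of 0.19. In DESeq2 the adjusted p was 0.071 for SFN, 0.081 for ENSA and 0.32 for ARPP19. The sign of 2 differences between genes that did not pass the test turned. For CDC25C minus PKMYT1 the value was -0.018 with a pseudocount of 0.1 and -0.28 to 0.30 with a library left out, and for CDC25A minus WEE1 -0.28 to 0.015 with a library left out. Leaving out a library gave 16 to 18 differing pairs of the 21 and a ratio of summed CDC25 to kinase levels between groups of 3.17 to 3.27. The omissions for that ratio and the block for the pairs were chosen after seeing the data. In the test against a fold change of 2, USP2-AS1 was no longer called (adjusted p = 0.0723), nor were BORA, CCNE1, CCNE2, TFDP2, LIN9, LIN52, NFYA, KRT18 and COL1A1. COL1A1 and KRT18 also fell short of the fold threshold under other settings. Replicate numbers did not pair the samples (correlation of their deviations -0.04), and under the replicate block the counts were 922 and 1098 and 18 pairs differed. Of the 7 genes, depth limits CDC25C the most (24 reads in its lowest library), and USP2-AS1 and LUM had as few as 2 reads and 1 read.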
